A study of Mus musculus with 10 samples.

Results

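Claudins, occludin and the scaffold protein ZO-1 build the tight junctions of pancreatic epithelium. The transcripts of 10 of these genes were followed by their symbols, 8 claudins (Cldn1, Cldn2, Cldn3, Cldn4, Cldn6, Cldn7, Cldn10 and Cldn12) together with Ocln and Tjp1, among the 24062 genes counted in each library. All 10 had enough reads to be tested. Pancreas RNA came from 5 WT and 5 KSR23 mice at postnatal day 5, all C57BL/6, with 1 library of polyadenylated RNA from whole tissue per mouse. KSR23 mice carry both the R23 allele, a cassette encoding IL-23, and a Cre recombinase driven by the keratin 14 promoter. By this design the paper directed IL-23 to keratinocytes. It reports more IL-23 transcript in skin than in tongue, esophagus and gut. Activity of the cassette in pancreas was not tested here. WT mice have the genotype without this combination, and the sources used here do not say whether they carried either allele alone. The comparison of KSR23 with WT mice asked whether the makeup of the junction transcripts differed in mice with IL-23 directed to keratinocytes. Junction proteins and the junctions themselves were not measured here.

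Tight junctions close the space between neighbouring epithelial cells near their lumenal side. Claudins span the membrane and form the strands, and the set of claudins in a strand decides which ions and water may pass between cells. Some of them, such as claudin-2, line pores, while others, such as claudin-4, mainly seal. Acinar and duct cells of the pancreas keep the enzyme-rich juice in the lumen behind these junctions, and duct fluid depends in part on sodium and water that follow the paracellular route.

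The WT libraries held 26830235 to 33189132 gene counts each and the KSR23 libraries 16715976 to 57784136. Values are given as CPM, the counts of a gene relative to library size, corrected by the TMM method, which sets aside genes that differ strongly between libraries. The limit that a count of 0 allows, taken as 3 counts, corresponded to 0.0535 to 0.168 CPM, and every member lay above it in every mouse. Genes were called at an adjusted p under 0.05 in edgeR's quasi-likelihood test. By that rule 31.0% of the 13882 genes tested were called, 16.2% higher and 14.8% lower in KSR23 mice, and in 19.4% the groups did not overlap in CPM. KSR23 replicate 3 stood apart in having the fewest reads and the most transcript of the neutrophil gene S100a8, 76.3 CPM against 9.89 to 17.5 in the other KSR23 mice. KSR23 replicate 2 held 12.0 CPM of the enterocyte gene Apoa4, against 0.161 to 0.629 CPM in the other 9 mice. Results are therefore also given without each of these libraries.

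Of the 10 genes, 5 were higher in KSR23 mice (Cldn1, Cldn2, Cldn4, Cldn7 and Ocln), 2 were lower (Cldn6 and Cldn10) and 3 were not called (Cldn3, Cldn12 and Tjp1). The 7 calls compare with a background of 31.0%. The groups did not overlap for Cldn2, Cldn4, Cldn7 and Ocln, which were higher, and for Cldn10, which was lower, 5 genes against a background of 19.4%. The median log2 fold change (log2 FC) of the 10 genes was 0.31, beside -0.01 over all genes tested. The same 7 genes were called without KSR23 replicate 3 and without KSR23 replicate 2.

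**Figure D1:**
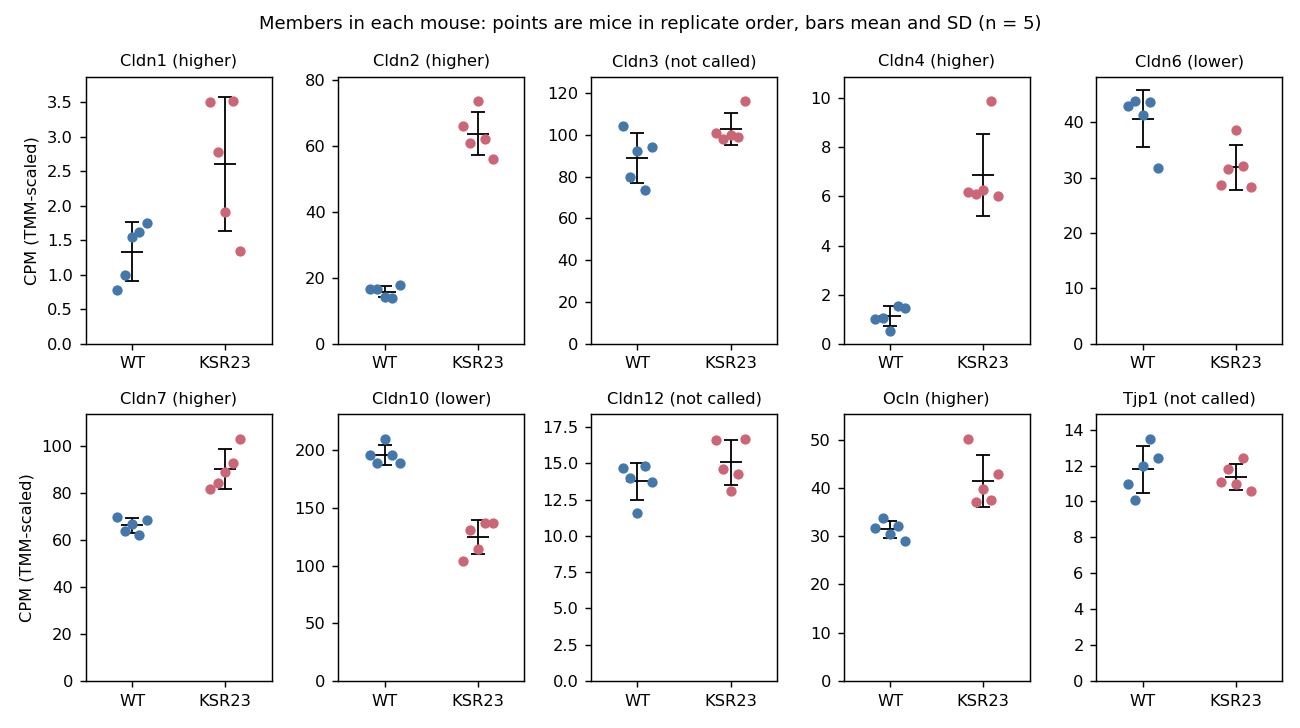
CPM of the 10 genes (y axis, TMM-scaled, starting at 0) in each of 5 WT and 5 KSR23 mice, with the mean and SD as bars. The KSR23 mice lie wholly above the WT mice for Cldn2 (56.0 to 73.6 against 13.8 to 17.7 CPM) and wholly below them for Cldn10 (104 to 137 against 189 to 210 CPM).

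The stretches in front of the 2 genes with the largest rises and of the gene with the largest fall are shown for orientation, each with 250 bases before the annotated start and 20 after it. They were taken from RefSeq on GRCm38.p6, in which all 10 genes were found with 15 starts among them. Letters matching a searched motif are in capitals.
Cldn2, chrX:139800558-139800827, plus strand: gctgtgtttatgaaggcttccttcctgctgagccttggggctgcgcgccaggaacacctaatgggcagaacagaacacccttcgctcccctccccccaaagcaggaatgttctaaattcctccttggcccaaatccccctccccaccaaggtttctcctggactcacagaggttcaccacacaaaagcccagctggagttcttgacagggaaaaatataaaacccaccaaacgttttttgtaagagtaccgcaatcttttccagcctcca
Cldn4, chr5:134946915-134947184, minus strand: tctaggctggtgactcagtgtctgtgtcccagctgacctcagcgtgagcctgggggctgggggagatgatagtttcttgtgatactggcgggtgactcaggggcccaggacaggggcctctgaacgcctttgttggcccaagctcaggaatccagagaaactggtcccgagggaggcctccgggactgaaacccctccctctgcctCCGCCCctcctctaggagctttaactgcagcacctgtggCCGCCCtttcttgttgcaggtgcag
Cldn10, the first of 2 starts, chr14:118787621-118787890, plus strand: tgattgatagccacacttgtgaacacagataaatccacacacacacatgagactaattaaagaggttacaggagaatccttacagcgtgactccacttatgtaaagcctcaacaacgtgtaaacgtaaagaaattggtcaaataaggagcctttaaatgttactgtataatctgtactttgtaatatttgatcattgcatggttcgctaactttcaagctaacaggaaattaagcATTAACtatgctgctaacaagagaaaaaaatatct
In the window of 300 bases that runs from 250 before to 50 after each start, 4 motifs were searched on both strands. The STAT palindrome TTCNNNGAA stood in 8.3% of 32851 promoters of this length and in 3 of the 15 here, at the second start of Cldn7 (TTCTGAGAA, at position -185 from it) and at 2 overlapping windows of Cldn12, which share 1 site. Of the 250 bases before these starts, exons of the gene itself, from its other transcripts, take up 221 at Cldn7 and 109 and 169 at Cldn12, as they do 218 at the second start of Cldn10. The Sp1 box GGGCGG stood in 35.7% of all promoters and in 11 of the 15, where the same 2 windows of Cldn12 again share 1 site. The Cldn4 stretch above holds the Sp1 box 2 times, as CCGCCC on the strand shown. The HNF1 motif GTTAAT stood in 7.1% of all promoters, in that of Cldn1 and, as ATTAAC, in the stretch of Cldn10 shown. The grainyhead-like motif AACCGGTT stood in 0.146% of all promoters and in none of the 15. No matches of different motifs overlapped. The window of Cldn2 held none of the 4. The 2 windows of Cldn10 differed in base composition, with 36% G and C at the first start and 72% at the second, and the counts per gene do not tell transcripts of the 2 starts apart.

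Cldn2 encodes the claudin that lines a pore for sodium and water, and it lies on chromosome X of GRCm38 (139800828 to 139811386, plus strand). It was at 16.6, 16.5, 14.3, 13.8 and 17.7 CPM in WT replicates 1 to 5 and at 66.1, 61.0, 73.6, 62.1 and 56.0 CPM in KSR23 replicates 1 to 5, the order kept for every gene below. Every KSR23 mouse was far above every WT mouse, and the spread within a group was small beside the gap. The mean rose 4.03-fold, from 15.8 ± 1.67 to 63.8 ± 6.54 CPM (SD, n = 5 each). Its log2 FC of 2.01 had a standard error of 0.0903 (edgeR adjusted p = 1.29e-11). This was 1.96 without KSR23 replicate 3 and 2.03 without KSR23 replicate 2.

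Cldn10 encodes claudins that form pores for cations or for anions, depending on the first exon used, and lies on chromosome 14 (118787908 to 118875489, plus strand). It went the opposite way to Cldn2. WT mice had 196, 189, 210, 196 and 189 CPM, while KSR23 mice had 104, 131, 114, 137 and 137 CPM. The highest KSR23 mouse stayed well under the lowest WT mouse. The mean fell from 196 ± 8.58 to 125 ± 14.7 CPM (SD, n = 5 each), and the log2 FC was -0.65 (standard error 0.0767, edgeR adjusted p = 3.69e-06). Per length, the ratio of Cldn2 to Cldn10 transcript was between 0.0531 and 0.0731 in WT mice and between 0.320 and 0.501 in KSR23 mice, a ratio chosen for description after the values were seen.

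These libraries hold RNA of all cell types of the organ, so fewer cells of a type and less RNA per cell cannot be told apart. Over all genes tested, 14.8% were lower and 16.2% higher in KSR23 mice. Acinar markers fell in the same mice. Of 12, 11 were lower and none was higher, with a summed level of 267983 to 290037 CPM in WT mice and 148004 to 186981 CPM in KSR23 mice, and none of the 12 was at 0. Ductal markers moved the other way, with 9 of 11 higher and none lower. Their sum was 1612 to 1754 CPM in WT mice and 2662 to 2944 CPM in KSR23 mice. Krt19, the usual duct keratin, was not called (log2 FC -0.05, edgeR adjusted p = 0.664). Krt8 and Krt18, keratins not limited to duct cells, are on that list. Their means were 189 and 305 CPM in WT and 294 and 558 CPM in KSR23 mice. The sum is therefore not a measure of duct cells alone. Its largest part was Spp1, with means of 753 CPM in WT and 1306 CPM in KSR23 mice. The part of these shifts in the claudin values was not tested.

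Among the 10 genes, Cldn1, Cldn3, Cldn4 and Cldn7 were taken as sealing claudins, of which 3 were higher and Cldn3 was not called. The grouping does not cover the whole family. Cldn8, also counted as sealing, was lower (log2 FC -0.50, edgeR adjusted p = 0.00168). Cldn4 had the largest log2 FC of the 10 genes. It lies on chromosome 5 (134945119 to 134946934, minus strand), consists of 1 exon, and encodes a claudin that limits the passage of sodium. Its CPM was 1.02, 1.06, 0.526, 1.55 and 1.45 in WT animals and 6.19, 6.10, 6.26, 9.88 and 6.00 in KSR23 animals. The groups were far apart, with KSR23 replicate 4 above the other KSR23 mice. The mean rose 6.13-fold, from 1.12 ± 0.406 to 6.88 ± 1.68 CPM (SD, n = 5 each). Its log2 FC of 2.61 had a standard error of 0.233 (edgeR adjusted p = 1.18e-07). These levels rest on 15 to 48 reads per WT library and 112 to 397 reads per KSR23 library. The log2 FC was 2.45 without KSR23 replicate 4 and 2.65 without KSR23 replicate 3.

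Cldn3 lies 39279 bases from Cldn4 on the same chromosome (134986214 to 134987472, plus strand), and was not called. It was at 104, 79.9, 92.1, 73.5 and 94.3 CPM in the WT mice and at 101, 98.1, 99.7, 99.1 and 116 CPM in the KSR23 mice. The groups overlapped, with WT replicate 1 above 4 of the 5 KSR23 mice. The log2 FC of 0.22 had a 95% interval of 0.04 to 0.4 (standard error 0.0857, edgeR adjusted p = 0.0644). Without WT replicate 1 it was called (log2 FC 0.28, edgeR adjusted p = 0.0184), and likewise with libraries scaled by their total alone (log2 FC 0.31, edgeR adjusted p = 0.0120). Of its exon bases, 40 also belong to Wbscr25 on the other strand, and whether the counting used strand is not given in the sources used here.

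Cldn7, which is found along the lateral membrane as well as at the junction, lies on chromosome 11 (69964779 to 69967885, plus strand). It was at 69.8, 63.6, 66.8, 62.0 and 68.3 CPM in the WT mice and at 81.8, 84.2, 89.0, 92.7 and 103 CPM in the KSR23 mice. The groups did not overlap. The rise was modest, from 66.1 ± 3.26 to 90.0 ± 8.14 CPM (SD, n = 5 each), and the log2 FC was 0.45 (standard error 0.0706, edgeR adjusted p = 0.000106).

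Cldn1, the claudin on which the water barrier of the skin depends, was scarce in pancreas. Its gene lies on chromosome 16 (26356642 to 26371841, minus strand). The WT mice had 0.770, 0.995, 1.54, 1.61 and 1.75 CPM and the KSR23 mice 3.50, 2.78, 1.90, 3.51 and 1.34 CPM. KSR23 replicate 5, the deepest library, lay among the WT mice. The log2 FC of 0.97 had a standard error of 0.289 and a 95% interval of 0.36 to 1.58 (edgeR adjusted p = 0.0164). This was the weakest call of the 7, and without KSR23 replicate 4 the edgeR adjusted p was 0.0495. Keratinocyte markers were low, with Krt5 at 0 counts in all 10 libraries and a sum of 6.07 to 9.64 CPM over 6 genes in WT mice and 5.41 to 9.28 CPM in KSR23 mice. Neither of the 2 with enough reads was called. One of them, Krt14, was at 1.03 to 2.98 CPM in WT mice and 1.46 to 2.66 CPM in KSR23 mice.

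Cldn6, a claudin of embryonic and newborn epithelia, lies on chromosome 17 (23679249 to 23682446, plus strand). It was at 43.0, 43.8, 41.3, 43.6 and 31.7 CPM in the WT mice and at 28.6, 31.5, 38.6, 32.2 and 28.4 CPM in the KSR23 mice. WT replicate 5 lay among the KSR23 mice, and KSR23 replicate 3 was the KSR23 mouse nearest to the other WT mice. The mean fell from 40.7 ± 5.11 to 31.9 ± 4.16 CPM (SD, n = 5 each), and the log2 FC was -0.36 (standard error 0.0992, edgeR adjusted p = 0.0106). It was -0.43 without KSR23 replicate 3 and -0.44 without WT replicate 5. With libraries scaled by their total alone it was not called (log2 FC -0.26, edgeR adjusted p = 0.0683).

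Cldn12, an atypical claudin linked to paracellular calcium, lies on chromosome 5 (5489537 to 5514958, minus strand) and was not called. Its values were 14.7, 14, 11.6, 14.8 and 13.7 CPM in WT and 16.6, 14.6, 13.1, 14.3 and 16.7 CPM in KSR23 mice, and the groups overlapped. The log2 FC of 0.13 had a 95% interval of -0.07 to 0.34 (edgeR adjusted p = 0.325). This interval holds the log2 FC of Cldn3 (0.22) and ends below that of Cldn7 (0.45). It overlaps the 95% interval of Cldn7, which was 0.3 to 0.59.

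Ocln encodes occludin, a membrane protein of the strand that is not a claudin, and lies on chromosome 13 (100496507 to 100552718, minus strand). It was at 31.6, 33.8, 30.4, 32.2 and 29.1 CPM in the WT mice and at 50.2, 37.1, 39.7, 37.4 and 42.9 CPM in the KSR23 mice. All KSR23 mice were higher than all WT mice, KSR23 replicate 1 most of all. The log2 FC was 0.40 (standard error 0.0857, edgeR adjusted p = 0.00172).

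Tjp1 encodes ZO-1, which ties claudins and occludin to the actin cytoskeleton, and lies on chromosome 7 (65296165 to 65527781, minus strand). It was at 11, 10.1, 12.0, 13.5 and 12.4 CPM in the WT mice and at 11.1, 11.8, 11, 12.4 and 10.6 CPM in the KSR23 mice. The groups lay on top of each other. The log2 FC was -0.06 with a 95% interval of -0.27 to 0.15 (edgeR adjusted p = 0.70), and scaling by library total alone gave 0.04.

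Levels of different genes were compared per length of exon, as CPM per kilobase. In WT mice the order was Cldn10 (75.6 ± 3.31), Cldn3 (70.5 ± 9.53), Cldn7 (33.9 ± 1.67), Cldn6 (23.6 ± 2.97), Ocln (7.44 ± 0.422), Cldn2 (4.75 ± 0.503), Cldn12 (3.25 ± 0.307), Tjp1 (1.51 ± 0.168), Cldn4 (0.617 ± 0.224) and Cldn1 (0.276 ± 0.0880). Cldn10 and Cldn3 overlapped there, at 72.9 to 81.1 and 58.4 to 82.4. The other neighbours were apart in every mouse, except that Cldn4 and Cldn1 overlapped, at 0.290 to 0.852 and 0.159 to 0.361. In KSR23 mice Cldn3 came first (81.7 ± 6.02) and Cldn10 next (48.1 ± 5.67), ahead of Cldn7 (46.2 ± 4.18), from which it did not differ beyond the spread. Cldn2 had moved up to 19.2 ± 1.97, level with Cldn6 at 18.5 ± 2.41, and Cldn4 to 3.79 ± 0.923, level with Cldn12 at 3.56 ± 0.365. Ocln lay between these pairs at 9.82 ± 1.28, and Tjp1 (1.45 ± 0.0915) and Cldn1 (0.538 ± 0.20) came last.

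The summed level of claudin transcript overlapped between the groups while its makeup differed. Over all 23 claudins of the family looked at, the summed CPM was 467 to 510 in WT mice and 473 to 524 in KSR23 mice. Per length, Cldn10 made up 30.7% ± 1.48 of claudin transcript in WT against 19.0% ± 1.82 in KSR23 pancreas (SD, n = 5 each). Cldn2 went from 1.93% ± 0.204 to 7.61% ± 0.911, that is from the ninth to the fourth place in the family. The share of Cldn4 was 0.253% ± 0.10 in WT and 1.5% ± 0.351 in KSR23 mice, and that of Cldn7 13.8% ± 0.381 and 18.3% ± 0.912. Cldn3 held 28.5% ± 2.70 in WT mice and 32.4% ± 1.94 in KSR23 mice. Shares of 1 whole move against each other, so they are given as a description without a test.

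**Figure D2:**
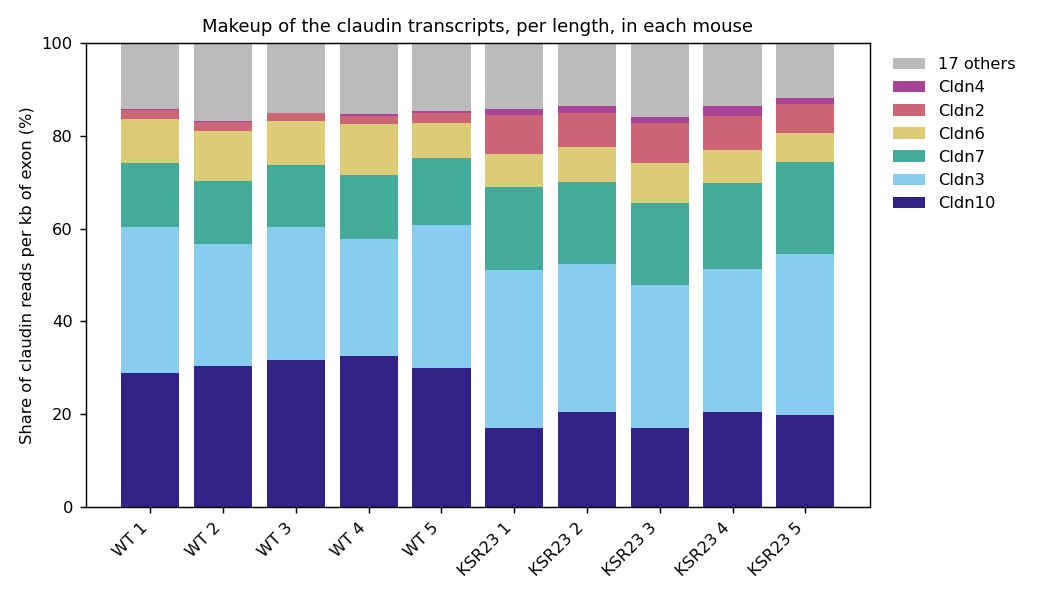
Share of each claudin among all claudin reads per kilobase of exon (y axis, percent) in each mouse (x axis), with 6 claudins in colour and the other 17 in grey. The Cldn10 segment is 28.8% to 32.6% in the WT mice and 17% to 20.6% in the KSR23 mice, and the Cldn2 segment is 1.69% to 2.19% and 6.34% to 8.57%.

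Each gene was also set against Cdh1 in the same library. Cdh1 encodes E-cadherin, which all epithelial cells of the pancreas make, and such a ratio needs no library scaling. The log2 ratio was higher in KSR23 mice by 1.76 for Cldn2 and by 2.40 for Cldn4, and lower for Cldn10, with a difference of -0.92. For each of the 3, all 5 KSR23 mice lay beyond all 5 WT mice (two-sided exact permutation test over all divisions of the mice into 5 and 5, adjusted p = 0.0265 over 10 genes, from p = 0.00794, the smallest it can give). Cldn6 and Tjp1 were lower against Cdh1, with differences of -0.61 and -0.31 (same permutation test, adjusted p = 0.0317 for both), with 4 of 5 KSR23 mice below all WT mice in each case.

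Against Cdh1, Cldn7 and Ocln were not called. Their differences were 0.19 and 0.14 (exact permutation test, adjusted p = 0.113 and 0.238), and that of Cldn1 was 0.67 (adjusted p = 0.113 in the same exact test). Cdh1 itself was higher in KSR23 mice, with a log2 FC of 0.26 (standard error 0.0701, edgeR adjusted p = 0.0102). For Cldn6 and Tjp1 the differences kept their direction without any 1 mouse, from -0.73 to -0.55 and from -0.37 to -0.25, but not always their call (exact permutation test, adjusted p up to 0.0635 and 0.0661). The number of genes called fell from 5 to 3 when WT replicate 1, 3 or 4 or KSR23 replicate 1 or 4 was left out, while Cldn2, Cldn4 and Cldn10 were called each time. The call of Cldn6 was also lost without WT replicate 2, and that of Tjp1 without KSR23 replicate 3 or 5. Cldn1 gained a call without KSR23 replicate 5 (difference 0.9, exact permutation test, adjusted p = 0.0476).

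**Figure D3:**
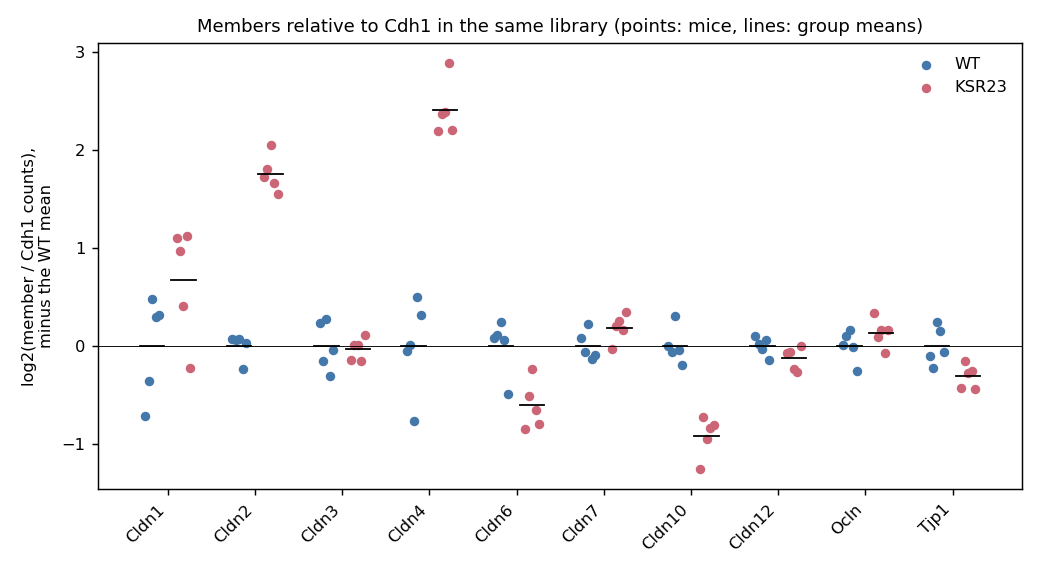
Log2 ratio of each gene's counts to those of Cdh1 in the same library, minus the WT mean (y axis), for 10 genes (x axis). Points are mice and lines are group means, and the KSR23 points of Cldn2 and Cldn4 stand above all WT points while those of Cldn10 stand below.

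Among the 15 other claudins, 6 had enough reads to be tested. Of these, 2 were higher, 2 were lower and 2 were not called, with a median log2 FC of -0.02. The share called over all genes tested was 31.0%. Cldn18, known from stomach and lung, rose from 4.51 ± 0.922 to 16.1 ± 2.07 CPM (SD, n = 5 each) without overlap, and its log2 FC was 1.83 (standard error 0.137, edgeR adjusted p = 1.20e-08). Cldn23 rose less, with a log2 FC of 0.52 (edgeR adjusted p = 0.00854). Cldn9 fell from 7.85 ± 1.41 to 1.69 ± 0.454 CPM, and its log2 FC was -2.26 (standard error 0.188, edgeR adjusted p = 4.49e-08). It faces Cldn6 on chromosome 17 (23682584 to 23684026, minus strand) with 137 bases between their 3' ends, and both were lower. Cldn8, a claudin of the distal kidney tubule, had a log2 FC of -0.50 (edgeR adjusted p = 0.00168).

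The endothelial claudin Cldn5 was not called (log2 FC -0.09, 95% interval -0.37 to 0.2, edgeR adjusted p = 0.677), and the endothelial markers were at a sum of 212 to 232 CPM in WT mice and 214 to 248 CPM in KSR23 mice, with 3 of 7 higher and 2 lower. Cldn15, a pore-forming claudin of the gut, was not called either (log2 FC 0.04, 95% interval -0.2 to 0.27, edgeR adjusted p = 0.841). Intestinal epithelium markers were low, with a sum of 5.97 to 8.49 CPM in WT mice and 8.08 to 23.5 CPM in KSR23 mice, the highest being KSR23 replicate 2. Of the 3 tested, 2 were higher, beside 16.2% of all genes tested. Of these 2, Apoa4 was at 12.0 CPM in KSR23 replicate 2 and at 0.161 to 0.629 CPM in the other KSR23 mice. Cdx2 was at 0 or nearly so in every library.

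**Figure D4:**
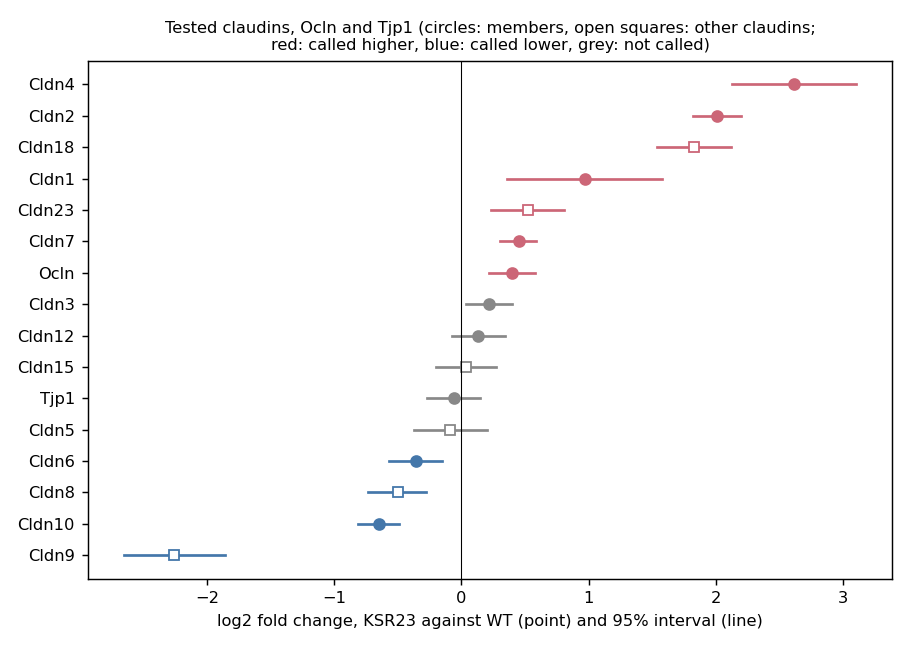
Log2 FC of KSR23 against WT (x axis) with its 95% interval for the 10 genes (circles) and the 6 other tested claudins (open squares). Cldn4 at 2.61 and Cldn2 at 2.01 stand at the upper end, and Cldn10 at -0.65 and Cldn9 at -2.26 at the lower end.

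The partners of claudins in the junction were counted as a list of 27 genes, all of which had enough reads. Of these, 10 were higher, 2 were lower and 15 were not called, with a median log2 FC of 0.17. Over all genes tested, 16.2% were higher and 14.8% lower. Tjp3, which encodes the scaffold protein ZO-3, went from 9.76 ± 1.58 to 19.4 ± 2.92 CPM (SD, n = 5 each), and its log2 FC was 1.0 (standard error 0.125, edgeR adjusted p = 8.28e-06). The difference between this change and that of Tjp1, which was not called, was not tested, but the 95% interval of 0.73 to 1.26 lies above that of Tjp1.

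Pard6b, a cell polarity gene, and Marveld3, a relative of occludin, rose by 0.57 and 0.51 on the log2 scale (edgeR adjusted p = 0.000151 and 0.00301). The 2 genes that fell were Magi3, a scaffold gene, with a log2 FC of -0.46 (edgeR adjusted p = 0.00700), and Cgnl1, which encodes paracingulin, with -0.34 (edgeR adjusted p = 0.0178). The call of Cgnl1 was lost with libraries scaled by their total alone, with an edgeR adjusted p of 0.0951, and without WT replicate 4 (0.0578) or KSR23 replicate 5 (0.0505).

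In adherens junctions and desmosomes, 7 of 17 genes were higher, 2 were lower and 8 were not called, with a median log2 FC of 0.22. The shares over all genes tested were 16.2% higher and 14.8% lower. Pvrl2 (nectin-2) had a log2 FC of 0.58 (edgeR adjusted p = 8.40e-06) and Pkp2, a desmosome plaque gene, one of 0.45 (edgeR adjusted p = 0.00373). Epcam, a general epithelial surface gene, rose by 0.36 (edgeR adjusted p = 8.19e-05), and Ctnna1, which encodes alpha-catenin, by 0.31 (edgeR adjusted p = 0.00156). The desmosomal cadherin genes Dsg2 and Dsc2 had log2 FC of -0.21 and -0.34 (edgeR adjusted p = 0.0272 and 0.0348). Both calls were lost with libraries scaled by their total alone (edgeR adjusted p = 0.264 and 0.137), and in fits without 1 mouse. For Dsg2 these were WT replicates 3 and 4 and KSR23 replicates 3 and 4 (edgeR adjusted p up to 0.0702), and for Dsc2 WT replicates 2 and 4 and KSR23 replicates 3, 4 and 5 (edgeR adjusted p up to 0.0919).

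The other marker lists also differed in places, where 31.0% of all genes tested were called. Myeloid markers were higher for 7 of 8, with a sum of 99.4 to 123 CPM in WT mice and 142 to 350 CPM in KSR23 mice, the highest being KSR23 replicate 3. Islet markers were lower for 6 of 10 and higher for 1, with a sum of 8133 to 11390 CPM in WT and 5016 to 6319 CPM in KSR23 mice. Stromal markers were higher for 1 and lower for 1 of 7, at 8181 to 10268 and 7426 to 9671 CPM. Of the mesothelial markers 1 of 4 tested was lower, at 176 to 214 and 154 to 208 CPM with Krt13 at 0. Of the lymphoid markers 1 of 4 tested was lower, with sums of 5.67 to 7.96 and 3.29 to 5.86 CPM. It was Cd3e, whose mean was 4.01 CPM in WT and 1.45 CPM in KSR23 mice. Cd3d, with too few reads to be tested, was at 0.0686 to 0.175 CPM in WT and 0.323 to 0.615 CPM in KSR23 mice. The part of these lists in the values of the junction genes was not tested. The log2 FC of Cldn2, Cldn4 and Cldn10 without KSR23 replicate 3 was 1.96, 2.65 and -0.62.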

How the data were processed

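Pancreas libraries of 5 WT and 5 KSR23 mice were grouped by their labels. Total RNA was primed with oligo-dT and amplified by PCR (SMART-Seq, Nextera XT) without molecular identifiers, so floors cover counting error only. Printed 95% intervals are from the fit and include the spread between mice. The authors aligned single-end reads to mm10 with TopHat2 2.1.0 and deposited counts per gene, not normalized, which HTSeq 0.6.1p1 made from unique alignments (versions from the submitters' processing notes). Annotation and strand setting are not given in the sources used here. Tallies of alignments given to no gene, 53.4% to 57.2% of the alignments in WT and 42.3% to 46.1% in KSR23 libraries, were left out.

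As in the study, a gene entered the test with 5 or more counts in each of the libraries, which 13882 of 24062 had. The groups were compared with edgeR 4.0.16 in R 4.3.3 (TMM scaling, quasi-likelihood F test, Benjamini-Hochberg adjustment over all genes tested), where the study used the likelihood ratio test. Adjusted p-values in the text are from this test unless a permutation test is named. The standard error is the size of the log2 FC over the square root of F. Ratios to Cdh1 used counts plus 0.5. Positions and exon lengths are from GENCODE M21 on GRCm38, the assembly mm10 names, and all 75-base windows of the longest protein-coding transcript of each of the 10 genes are unique to it. No 2 libraries of a group were copies (chi-square per degree of freedom at least 11.8 over 20 pairs). The paper calls the controls littermates, but the labels give no litter, so shared litters could not be taken into account. The labels do not say more of the mice, so p-values measure the spread between these samples.

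The 10 genes and all lists were chosen with earlier results of these data known. Named were the 10 genes, every other claudin tested, the 4 highest and 4 lowest called genes of each junction list, and at most 3 defining genes of a marker list. One result that this rule names is not reported here. Apoa4, Cd3d, Cd3e, Cdh1, Cldn13 and Spp1 were added after their values were seen. The fit was tested on simulated data, in which it found 54.0% of genes changed by 0.5 on the log2 scale and 100% of those changed by 1, among 14437 genes. Of its 183 calls there, 10 were false. The simulation gave every gene the same spread between mice and changed only genes above a set mean count. Its shares need not hold for scarce genes such as Cldn1 and Cldn4, with standard errors of 0.289 and 0.233. Other settings tried were DESeq2 1.42.0, the likelihood ratio test, further scalings and filters, a block for the replicate number, and fits without 1 mouse each.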

Additional observations from a re-analysis of the deposited data

Results flagged for a closer look

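Among 56 groups of 5 values, 4 had 1 mouse far from the other 4, where chance gives about 2.80. Cldn3 was at 116 CPM in KSR23 replicate 5, against 98.1 to 101 CPM in the other KSR23 mice. Cldn4 was at 9.88 CPM in KSR23 replicate 4 against 6.00 to 6.26 CPM, and the endothelial claudin Cldn5 at 15.2 CPM in the same mouse against 9.73 to 10.9 CPM. WT replicate 5 had 31.7 CPM of Cldn6, against 41.3 to 43.8 CPM in the other WT mice.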

How the results depend on the processing

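No log2 FC of a called gene among the 10 changed sign in 18 other settings. In 17 of them all 7 calls were kept, and libraries scaled by their total alone lost that of Cldn6. That scaling moved the median log2 FC of all genes from -0.01 to 0.09 and the share of calls that were higher from 52.3% to 72.5%. Under it 6 of the 10 genes were higher and 1 lower, 13 partners higher and 1 lower, and 9 adherens junction and desmosome genes higher and none lower. The count of genes called ran from 3497 to 4652. Replicate numbers did not pair mice (correlations from -0.11 to 0.07), and with the replicate number as a block (replicate block), 3749 genes were called, 7 of the 10, 4 other claudins, 11 tight junction partners and 7 adherens junction and desmosome genes, without Dsg2 and Dsc2 (edgeR adjusted p = 0.0596 and 0.0510). Over the fits that each left out 1 mouse, 7 to 8 of the 10 were called, 9 to 13 partners, 7 to 11 adherens junction and desmosome genes and 3 to 5 genes against Cdh1. With the longest transcript as length, Cldn10 held 32.7% of claudin transcript in WT mice and Cldn3 24.9% in WT and 28.3% in KSR23 mice. At 15 to 50 reads per WT library, the depth limits Cldn1 and Cldn4 most.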

Other observations

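Cldn13 could not be tested, since it had too few reads in some libraries. It was at 1.68, 2.20, 0.667, 2.74 and 0 CPM in the WT mice and at 0.0251, 0.0888, 9.0, 0 and 0.250 CPM in the KSR23 mice. The high value was that of KSR23 replicate 3, which also held the most Mpo, a gene of immature granulocytes, at 37.7 CPM. In the same order, Mpo was at 4.55, 3.74, 2.32, 10.5 and 0.670 CPM in the WT mice. In the KSR23 mice it was at 3.80, 9.12, 37.7, 1.62 and 9.39 CPM. Neither a relation between the 2 genes nor the source of the Cldn13 reads was tested. Cldn14, Cldn16, Cldn17 and Cldn24 had no read in any library.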
